A study of Mus musculus with 2 samples.

Results

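The gene set described here covers pyruvate metabolism and the tricarboxylic acid cycle in Neuro2a cells, a mouse neuroblastoma line, after depletion of the RNA-binding protein CPEB1. Its members were 35 gene symbols taken as a list, and every probe set annotated to 1 of these symbols alone, under its current or an older name, was followed. Of the 35 genes, 34 had such a probe set, with 73 probe sets in all and 4 further manufacturer's control probe sets for pyruvate carboxylase. In the whole table, 18193 genes had a probe set of their own. The platform annotation gave no probe set to Mpc2 alone, and this gene was not analysed here.

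The siCPEB1 culture received Stealth siRNA against the coding region of Cpeb1 mRNA for 24 hours, and the siControl culture received control siRNA for 24 hours. Both were Neuro2a cells of the same line in serum-containing medium, both were transfected with Lipofectamine RNAiMAX, and no other genetic change was given for either. RNA of each condition was hybridized to 1 Affymetrix Mouse Genome 430 2.0 array, starting from 100 ng of total RNA. The comparison asked which transcripts differed once CPEB1, a protein that binds cytoplasmic polyadenylation elements of mRNAs, was depleted. With 1 array for each condition the spread between cultures was not measured and no p-value was computed. A depletion of this kind covers a pool of transfected and untransfected cells.

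Pyruvate enters mitochondria through a carrier and is either oxidized to acetyl-CoA by the pyruvate dehydrogenase complex or carboxylated to oxaloacetate by pyruvate carboxylase. Acetyl-CoA and oxaloacetate condense to citrate, and the cycle returns to oxaloacetate through isocitrate, 2-oxoglutarate, succinyl-CoA, succinate, fumarate and malate. Reactions that refill the cycle are called anaplerotic, and in neural tissue pyruvate carboxylase is best known from astrocytes. Citrate and dicarboxylates such as malate leave the matrix through carriers of the SLC25 family.

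The targeted transcript was checked first. Cpeb1 had a signal of 38.5 on the siCPEB1 array, against 302 on the siControl array, and was 7.86-fold lower after depletion, in the direction that the labels give. The 75th percentile of all signals was 158 on the siCPEB1 array and 154 on the siControl array. Of 11 measured sympathetic and neuroblastoma markers, 10 were at or above the array median on both arrays, with Th at 17.9 in siCPEB1 cells and 18.6 in siControl cells as the exception. Their summed signal, at the brightest probe set of each, was 15350 in siCPEB1 cells and 15668 in siControl cells. At 1 probe set for each gene, by preference no _x_at or _s_at set, 5 of 10 markers rose and 1 fell past 2-fold. Of all genes, 3.92% rose and 3.1% fell. Among the 5, Dbh rose 2.03-fold at that set and 1.76-fold at its brightest, an _x_at set. None of 5 hepatocyte, 4 adipocyte and 5 haematopoietic markers reached the median on either array. Of 6 fibroblast markers 2 did, and their summed signal was 389 in siCPEB1 cells and 94.0 in siControl cells, mostly from Col1a2 at 309 and 42.3 in that order. The part of these marker differences in the results below was not tested. In bulk RNA, fewer cells of a type and less RNA per cell cannot be told apart.

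Pcx (pyruvate carboxylase, the biotin enzyme that makes oxaloacetate from pyruvate) was the 1 measured member past 2-fold. Its signal was 362 in siCPEB1 cells and 121 in siControl cells, a 2.99-fold higher value after depletion with a log2 ratio of 1.58. This gene lies on chromosome 19 of GRCm38.p6 between positions 4510472 and 4621752 on the plus strand, and RefSeq gives it 2 start sites 83847 bases apart. Sequences from 250 bases before to 50 bases after each start are shown because Pcx had the highest ratio of the measured members. Capitals mark a CACGTG (E-box) match. The upstream window held this match from its base 3 on, near the far end from the start, with a GC content of 61.7%, and the downstream window held none of the motifs searched, with a GC content of 57%.
Pcx upstream start, chr19:4510222-4510521, plus strand: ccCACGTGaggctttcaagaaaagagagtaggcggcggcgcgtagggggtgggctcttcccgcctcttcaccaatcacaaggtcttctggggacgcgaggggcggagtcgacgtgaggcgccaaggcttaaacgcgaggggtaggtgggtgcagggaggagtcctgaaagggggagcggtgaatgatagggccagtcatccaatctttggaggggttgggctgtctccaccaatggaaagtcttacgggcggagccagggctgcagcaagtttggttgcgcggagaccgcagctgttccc
Pcx downstream start, chr19:4594069-4594368, plus strand: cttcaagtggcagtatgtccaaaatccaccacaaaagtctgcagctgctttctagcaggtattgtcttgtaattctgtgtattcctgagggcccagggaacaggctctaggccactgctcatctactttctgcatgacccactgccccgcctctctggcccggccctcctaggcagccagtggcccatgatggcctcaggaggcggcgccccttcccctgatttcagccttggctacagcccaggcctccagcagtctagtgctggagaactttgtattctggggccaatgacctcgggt
The array does not tell apart transcripts from these starts.

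The study also measured this transcript, as Pc, by qPCR. It had chosen Pc with arrays of FMR1-depleted cells, with and without CPEB1 depletion, that were not analysed here. By qPCR the study reported higher Pc levels in siCPEB1 than in siControl cells. The primers of the study, each of 20 bases, are shown to identify the amplified transcript, and their positions were not mapped here.
Pcx forward primer: gctatgaggagttggaagag
Pcx reverse primer: gaacttctccacaaacaacg

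Pcx was also read by 4 control probe sets that the array carries for transcript positions from the 5′ to the 3′ end. The 3′ control gave 257 in siCPEB1 cells and 95.3 in siControl cells, a 2.69-fold higher signal. The 2 controls of the middle part, MA and MB, gave 81.9 and 90.1 in siCPEB1 cells against 30.2 and 43.1 in siControl cells, which made them 2.71-fold and 2.09-fold higher. The 5′ control gave 51.8 in siCPEB1 cells and 32.4 in siControl cells, a 1.60-fold higher signal that did not pass 2-fold. All 5 readings of Pcx were therefore higher in siCPEB1 cells, and 4 of the 5 passed 2-fold.

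The control probe sets also show how far the ratio depends on the transcript position. For Pcx the 3′ over 5′ signal ratio was 4.95 on the siCPEB1 array and 2.94 on the siControl array. For Tfrc (transferrin receptor) it was 2.91 and 2.36, for Actb (beta-actin) 1.35 and 1.27, and for Gapdh (a glycolytic enzyme) 0.782 and 0.798, each with the siCPEB1 array first. The log2 ratios of the 9 control probe sets of Tfrc, Actb and Gapdh ran from -0.44 to 0.05, against 0.68 to 1.44 for the 4 of Pcx. The Pcx, Tfrc and Actb ratios were thus higher on the siCPEB1 array and that of Gapdh was not, and what part this had in the size of the Pcx value was not tested.

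**Figure D1:**
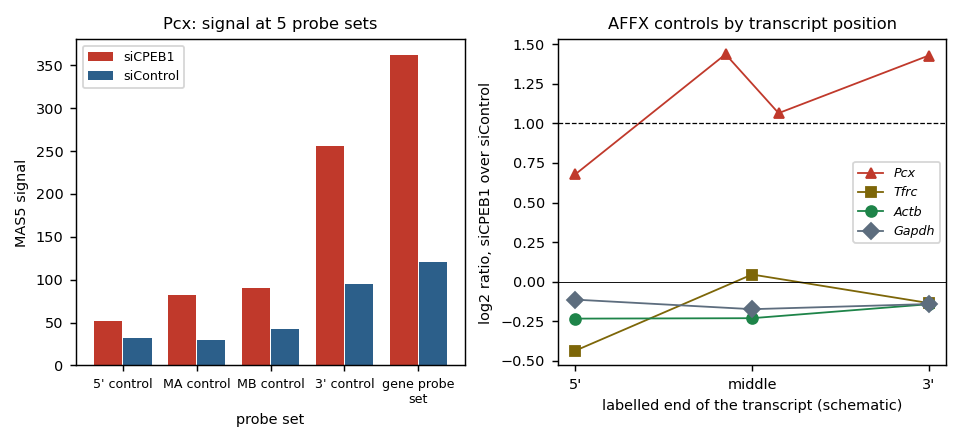
Left, MAS5 signal (linear axis from 0) of the 5 Pcx probe sets, siCPEB1 bars left of siControl bars. Right, log2 ratio of siCPEB1 over siControl at the control probe sets of 4 transcripts by labelled position, with the dashed line at 2-fold. The 4 Pcx controls lie between 0.68 and 1.44 and the 9 others between -0.44 and 0.05.

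Counts past 2-fold over the whole set were read beside the same counts over all probe sets and genes. A probe set was counted when the geometric mean of its 2 signals was at least 20.6, the median over all probe sets, and this filter kept 61 of the 73 member probe sets and all 4 Pcx controls. Of the 61, 1 was more than 2-fold higher in siCPEB1 cells (1.64%) and 0 were more than 2-fold lower, against 3.47% higher and 3.36% lower among 22519 probe sets. With 1 probe set for each gene, 1 of 30 measured members was higher (3.33%) and 0 were lower, against 3.92% and 3.1% of 11170 genes. When the arrays were instead scaled on the hybridization controls, 5.61% of all genes were higher and 2.16% lower, with the same member counts.

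At 1.5-fold, a threshold added after the values had been seen, 4 member probe sets were higher (6.56%) and 5 lower (8.20%), against 11.5% and 10.9% of all probe sets. By gene, 2 members were higher (6.67%), Pcx and Slc25a10, and 3 were lower (10%), Mpc1, Pck2 and Idh2, against 12.0% and 10.1% of all genes. At the main filter and scaling, the share of members past either fold was near or below that of all genes in each direction. With the filter at the 75th percentile of the geometric mean, 1 of 29 members was more than 2-fold higher and 0 were lower. Of 6890 genes at that filter, 1.81% were higher and 2.60% lower. The median log2 ratio over the 30 members was 0.08, with an interquartile range of -0.15 to 0.16, beside a median of 0.04 and a range of -0.26 to 0.34 over all measured genes. Of the 30, 18 were above 0 and 12 below, against 5986 above and 5184 below of 11170 genes.

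A yardstick for the spread between probe sets within these arrays came from genes with several probe sets. It does not hold the spread between cultures, so a ratio beyond it need not exceed that spread. Over 5331 such genes the pooled SD of the log2 ratio between probe sets of 1 gene was 0.33, and over the 20 members with at least 2 it was 0.30. Among the measured members, 21 of 30 (70%) had a log2 ratio within 0.33 of 0, against 53.7% of all genes. The pooled SD was 0.38 where the dimmest probe set of a gene was under 100 and 0.14 where it was 500 or more. At the probe set used for each gene, the measured members had a median geometric mean signal of 1157, against 219 over all genes, and the part of signal strength in the narrower range of the members was not tested.

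**Figure D2:**
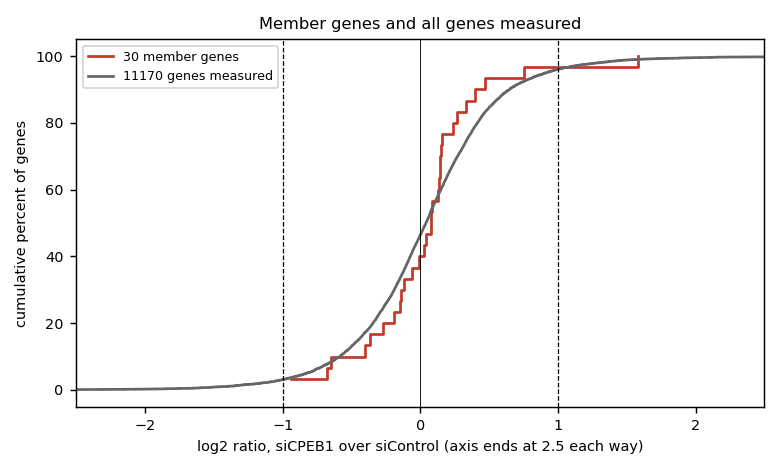
Cumulative percent of genes (vertical axis) up to each log2 ratio of siCPEB1 over siControl (horizontal axis), for the 30 measured members and all 11170 measured genes, with dashed lines at 2-fold. The member curve is the steeper near 0, and 1 member lies beyond a dashed line.

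Entry of pyruvate into mitochondria was represented by Mpc1, a subunit of the mitochondrial pyruvate carrier. Its single probe set had a signal of 947 in siCPEB1 cells and 1483 in siControl cells, with a log2 ratio of -0.65. The gene lies on chromosome 17 between 8283787 and 8297667. The value was below that of siControl cells by more than the SD between probe sets, and did not reach 2-fold.

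The 5 genes of the pyruvate dehydrogenase complex were close to even between the arrays, with a median log2 ratio of 0.08 and all 5 within 0.33 of 0. Pdhb (E1 beta subunit) had 2308 in siCPEB1 cells and 2413 in siControl cells. Pdha1 (the catalytic E1 alpha subunit) had 1486 and 1639 on the same arrays in that order, the lowest ratio of the complex at -0.14. Dlat (the E2 acetyltransferase) had the highest at 0.14, with 1147 in siCPEB1 cells and 1039 in siControl cells. A further Dlat probe set gave 286 in siCPEB1 cells and 173 in siControl cells (0.73), so the probe sets of this gene differed in size but not in sign. Dld (the E3 dehydrogenase, shared with the 2-oxoglutarate dehydrogenase complex) had a log2 ratio of 0.09 and Pdhx (the E3-binding protein) of 0.08. The summed signal of the 5 genes was 6168 in siCPEB1 cells and 6248 in siControl cells.

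Of the enzymes that switch this complex off or on, the kinases Pdk2, Pdk3 and Pdk4 fell below the filter. Pdk2 had 8.34 in siCPEB1 cells and 9.47 in siControl cells, and Pdk3 had 1.68 and 1.70 in the same order. Pdk4 had 8.66 in siCPEB1 cells and 0.552 in siControl cells. Both of these Pdk4 signals were below the median of their array, so no fold is given. The phosphatases were measured, with Pdp1 at 166 in siCPEB1 cells and 167 in siControl cells (-0.01) and Pdp2 at 65.7 and 79.2 in that order (-0.27).

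Among the anaplerotic and malic enzymes the median log2 ratio of 4 measured genes was 0.01, and its sign turned negative in 3 alternatives, with the median or the 75th percentile of the arrays set equal or with the mean of the probe sets of a gene. Pcx stood at 1.58 and the other members lay at or below 0.13. Pck2 (mitochondrial phosphoenolpyruvate carboxykinase, which takes oxaloacetate out of the cycle) had 892 in siCPEB1 cells and 1431 in siControl cells (-0.68), and its other probe set had 134 and 164 in that order (-0.29). Pcx, which makes oxaloacetate, and Pck2, which uses it, thus stood at opposite ends of the group, with both Pck2 probe sets below 0. Me1 (cytosolic malic enzyme) had 1256 in siCPEB1 cells and 1366 in siControl cells (-0.12), and Me2 (mitochondrial malic enzyme) had a log2 ratio of 0.13. The other Me2 probe sets above the filter stood at 0.40 and -0.56, and the mean of the Me2 sets was -0.01. Me3 was below the filter, at 11.8 in siCPEB1 cells and 6.28 in siControl cells.

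The 8 genes from citrate to succinyl-CoA had a median log2 ratio of 0.08, which was -0.02 with the mean of the probe sets of a gene. The NADP-dependent isocitrate dehydrogenases had the lowest ratios of the group. Idh2 (the mitochondrial form) had 242 in siCPEB1 cells and 463 in siControl cells, a 1.92-fold lower value that did not pass 2-fold, with a log2 ratio of -0.94. It was the lowest ratio of the 30 members, and 3.64% of all genes lay below it. Its other probe set, under the filter, had 13.9 in siCPEB1 cells and 21.3 in siControl cells. Idh1, the cytosolic form, had 1082 in siCPEB1 cells and 1393 in siControl cells (-0.37).

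The 3 subunits of the NAD-dependent enzyme of the cycle itself had values nearer 0. Idh3a (catalytic subunit) had 2847 in siCPEB1 cells and 2420 in siControl cells (0.23), while Idh3b and Idh3g stood at 0.04 and 0.02. Cs (citrate synthase) had a log2 ratio of 0.12, with 2653 in siCPEB1 cells and 2433 in siControl cells. In the 2-oxoglutarate dehydrogenase complex, Ogdh (E1) stood at 0.14. Dlst (E2 succinyltransferase) had 1162 in siCPEB1 cells and 968 in siControl cells (0.26), the highest of the group, and its mean over 4 probe sets was -0.09. No cycle enzyme of this group was higher past 1.5-fold at the probe set used for the gene.

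Idh2 spans positions 80094845 to 80118608 on the minus strand of chromosome 7. Its RefSeq window was taken around a start at 80115350, inside this span, and not around the upstream end at 80118608. The window is printed because Idh2 was the member with the lowest ratio, and has a GC content of 68.3%. It held none of the motifs searched, and so carries no capitals.
Idh2, chr7:80115301-80115600, minus strand: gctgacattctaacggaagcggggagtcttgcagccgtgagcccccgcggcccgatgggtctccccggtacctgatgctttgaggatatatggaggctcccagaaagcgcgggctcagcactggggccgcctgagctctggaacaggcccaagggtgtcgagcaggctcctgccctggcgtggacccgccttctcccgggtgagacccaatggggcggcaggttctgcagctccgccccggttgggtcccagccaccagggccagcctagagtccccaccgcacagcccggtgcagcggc

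From succinyl-CoA to oxaloacetate, 6 genes had a median log2 ratio of 0.15. Sucla2 (the ATP-forming beta subunit of succinyl-CoA synthetase) had the lowest, with 1124 in siCPEB1 cells and 1481 in siControl cells (-0.40). Its other probe set above the filter, at 23.0 in siCPEB1 cells and 20.9 in siControl cells, stood on the other side of 0 at 0.13, and the mean of both was -0.13. Its GTP-forming counterpart Suclg2 stood at -0.15 (-0.14 as the mean of its probe sets, then the lowest of the group), and Suclg1, the alpha subunit that pairs with either, at 0.16. Fh1 (fumarase) had a log2 ratio of 0.15. Mdh2 (mitochondrial malate dehydrogenase) had 6757 in siCPEB1 cells and 5369 in siControl cells (0.33), and its other probe set gave 0.24.

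Mdh1 (cytosolic malate dehydrogenase) had the highest ratio of the group at 0.40, with 2305 in siCPEB1 cells and 1753 in siControl cells. It was also the only member whose probe sets above the filter differed from each other by more than 2-fold, by 2.09-fold. A pair of other probe sets stood at 0.35 and 0.07. That at 0.07, an _x_at set, was the brightest of the gene, with 5781 in siCPEB1 cells and 5517 in siControl cells. The dimmest above the filter had 29.8 in siCPEB1 cells and 47.3 in siControl cells (-0.67). The mean over the 4 was 0.04.

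**Figure D3:**
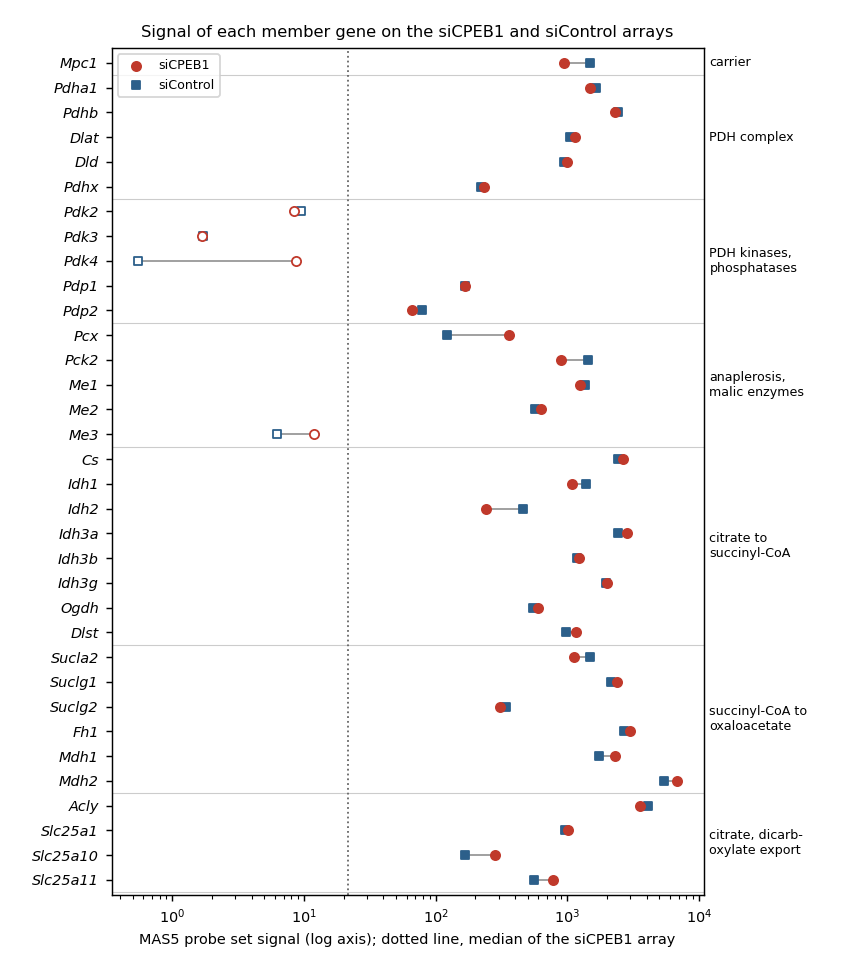
MAS5 signal (log axis) of the probe set used for each of 34 members, siCPEB1 as circles and siControl as squares, grouped by role. Open symbols mark the 4 genes below the filter, and the dotted line is the median of the siCPEB1 array (21.5). The widest gap among filled symbols is that of Pcx, at 362 and 121.

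The 4 genes of citrate and dicarboxylate export had the highest median among the role groups, at 0.27, with values from -0.19 to 0.75. Slc25a10 (the dicarboxylate carrier, which exchanges malate or succinate for phosphate) had 282 in siCPEB1 cells and 167 in siControl cells (0.75). Its other probe set had 160 in siCPEB1 cells and 93.8 in siControl cells (0.77). Both probe sets of this gene were thus higher past 1.5-fold and not past 2-fold, with nearly the same ratio. Slc25a11 (the oxoglutarate carrier of the malate-aspartate shuttle) had 771 in siCPEB1 cells and 557 in siControl cells (0.47).

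The 2 genes that lead citrate to cytosolic acetyl-CoA lay nearer 0. Slc25a1 (citrate carrier) had a log2 ratio of 0.08. Acly (ATP citrate lyase, which splits exported citrate) had 3566 in siCPEB1 cells and 4068 in siControl cells (-0.19), and the other 2 Acly probe sets above the filter stood at -0.15 and -0.19. The Slc25a10 window is printed because the gene was the highest member after Pcx. It lies on the plus strand, has a GC content of 59.7% and held none of the motifs searched.
Slc25a10, chr11:120491587-120491886, plus strand: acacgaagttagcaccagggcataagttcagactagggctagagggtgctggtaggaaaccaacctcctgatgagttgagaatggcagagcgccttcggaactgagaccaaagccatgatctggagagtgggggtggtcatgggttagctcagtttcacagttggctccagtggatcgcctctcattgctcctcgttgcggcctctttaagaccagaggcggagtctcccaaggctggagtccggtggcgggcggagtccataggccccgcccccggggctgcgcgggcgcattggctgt

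**Figure D4:**
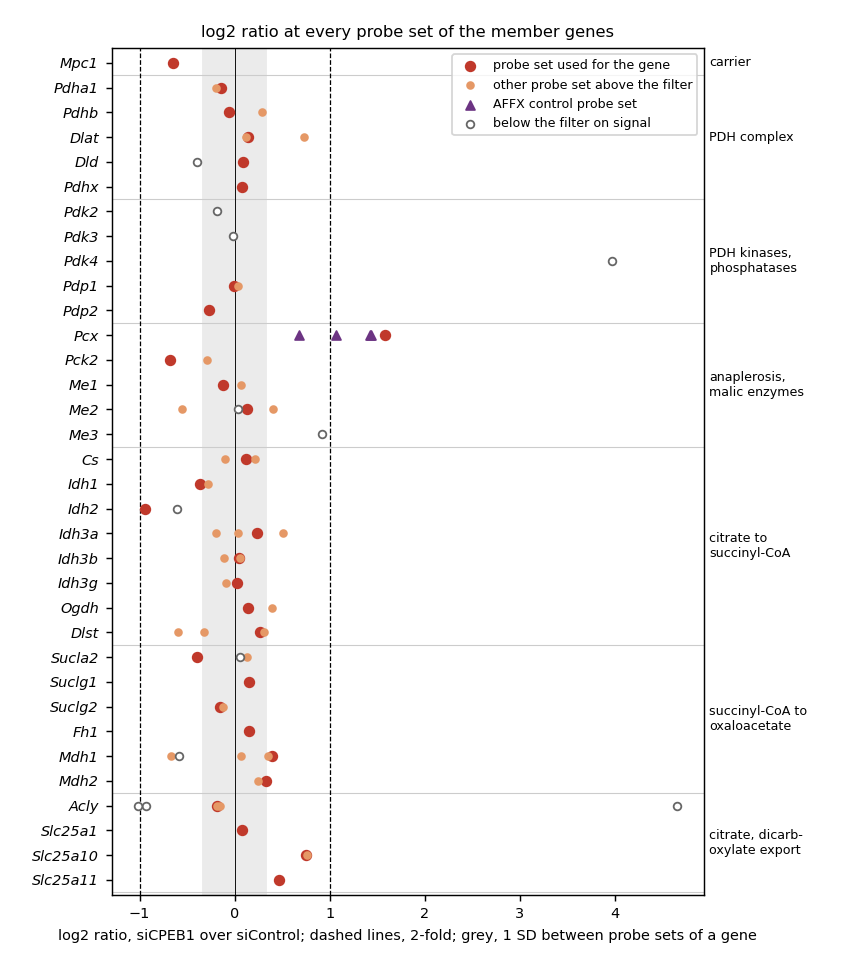
log2 ratio of siCPEB1 over siControl (horizontal axis) at each probe set of the members by role, with dashed lines at 2-fold and a grey band of 0.33 either side of 0, the pooled SD between probe sets of a gene. Among filled points, only those of Pcx lie beyond a dashed line, and open points are below the filter.

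Promoter windows of RefSeq were at hand for 32 of the 35 members, with 42 windows of 300 bases, and 4 motifs were searched on both strands. The estrogen-related receptor motif TCAAGGTCA was in 0 of 42, against 0.423% of 32851 windows in all, and the ATF4 and C/EBP motif TGATGNAAT was in 0, against 0.965%. The NRF2 motif TGACNNNGC was in 7 windows (16.7%), those of Me1, Mdh1, Dlst, Pdhb, Sucla2, Mpc1 and Idh3g, against 12.4% of all. The E-box CACGTG was in 7 windows (16.7%) of 5 genes, Pcx, Slc25a1, Ogdh, Pdp2 and Pdk2, against 7.15% of all. Several of the 7 were windows of Ogdh, with the match at -110, -141 and -162 bases from the start. Each window was counted on its own, also where a gene had several. Whether the Ogdh matches were the same site in overlapping windows was not checked, and the share of member windows counts each of them. The E-box genes above the filter had log2 ratios from -0.27 to 1.58, and those with the NRF2 motif from -0.65 to 0.40. Median GC content was 61.5% in member windows and 52.7% in all windows, and such matches describe letters in a window and not binding.

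Other genes of the same pathways were taken from 7 further lists of 43 symbols. Of these, 34 were measured, and 10 had a log2 ratio above 0 and 24 below. Of 11170 genes in all, 5986 were above 0 and 5184 below. Past 2-fold, 1 of the 34 was higher and 1 lower, against 3.92% and 3.1% of all genes. The median was -0.16, against 0.08 for the members and 0.04 for all genes. Other cycle enzymes and complex II, which oxidizes succinate, had a median of -0.19 over 6 genes. They ran from Dhtkd1 (a 2-oxoadipate dehydrogenase), at 54.9 in siCPEB1 cells and 73.7 in siControl cells (-0.43), to Sdhd (a membrane anchor of complex II), at 1291 and 928 in that order (0.48). None of these 6 passed 2-fold.

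Further enzymes that make or use pyruvate had a median of -0.09 over 7 genes. The lowest at the probe set used was Pdk1 (a pyruvate dehydrogenase kinase), with 41.9 in siCPEB1 cells and 78.6 in siControl cells (-0.91). The other Pdk1 probe sets above the filter stood nearer 0, at -0.40 and -0.31. The highest was Gpt (an alanine aminotransferase), with 49.7 and 29.3 in that order (0.76). Gpt2, the other alanine aminotransferase of the list, was brighter and lower, with 395 in siCPEB1 cells and 565 in siControl cells (-0.52). The 5 genes of lipoylation, which attaches the cofactor that Dlat and Dlst use, were all below 0, from -0.22 at Gcsh to -0.04 at Lipt2, and all within 0.33 of 0.

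The remaining biotin enzymes were read because pyruvate carboxylase is one of them, and had a median of 0.28 over 8 genes. Pccb, the beta subunit of propionyl-CoA carboxylase, rose 2.07-fold, with 227 in siCPEB1 cells and 110 in siControl cells. Its partner Pcca, the alpha subunit, had 268 in siCPEB1 cells and 436 in siControl cells (-0.70), the lowest of the list. The subunits of this enzyme thus had ratios of opposite sign. Hlcs, which attaches biotin to these enzymes and to pyruvate carboxylase, had a log2 ratio of 0.60, and Btd, which recycles biotin, of 0.57.

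The malate-aspartate shuttle had a median of -0.62 over 3 genes. Got1 (cytosolic aspartate aminotransferase) fell 2.08-fold, with 782 in siCPEB1 cells and 1624 in siControl cells. Slc25a12 had 500 in siCPEB1 cells and 769 in siControl cells (-0.62), and its dimmer probe sets above the filter stood at -0.03 and -0.30. Got2, the mitochondrial form of Got1, had a log2 ratio of 0.19. Genes of glutamine and glutamate entry had a median of -0.52 over 3 genes, from Glud1 (glutamate dehydrogenase) at -0.55 to Slc25a22 (a mitochondrial glutamate carrier) at 0.33. For cytosolic use of acetyl-CoA, the 2 measured genes were Fasn (fatty acid synthase) at -0.54 and Acss2 (acetyl-CoA synthetase) at -0.45. With lists of 2 to 8 genes, the medians describe these arrays alone.

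**Figure D5:**
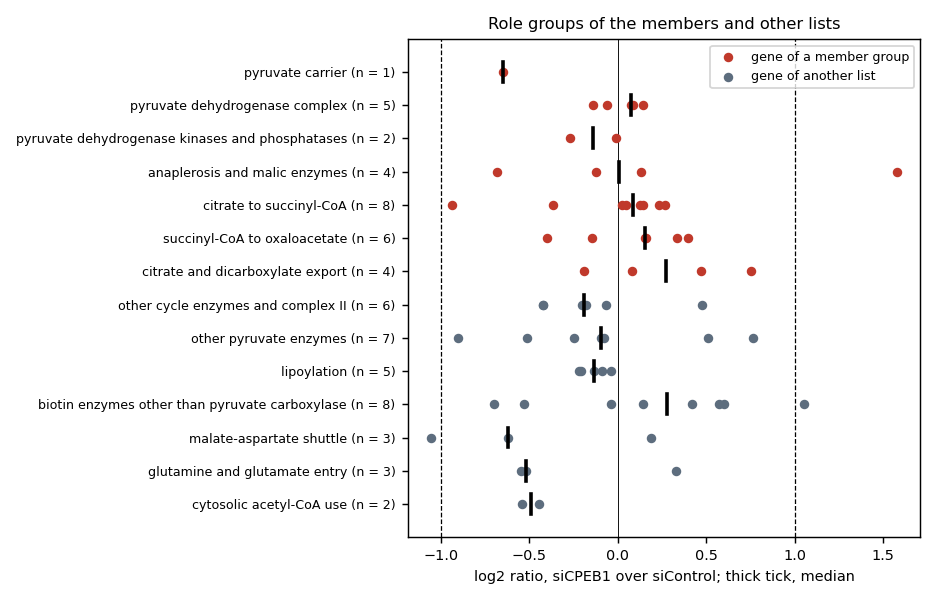
log2 ratio of siCPEB1 over siControl (horizontal axis) of each measured gene, by role group of the members above and by further list below, with a thick tick at each median and dashed lines at 2-fold. Pcx at 1.58, Pccb at 1.05 and Got1 at -1.05 are the points beyond a dashed line.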

How the data were processed

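Total RNA of 1 culture for each condition was labelled and hybridized to 1 array. The authors deposited 1 linear intensity for each probe set and array, which the submitters' processing notes credit to MAS5 run in Affymetrix Expression Console. This method corrects for background and applies 1 scaling factor to an array, and its version and scaling target were not found in the sources used.

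Deposited siCPEB1 signals were divided by siControl signals and put on a log2 scale for 45037 probe sets, with 64 AFFX probe sets left out of counts, without further scaling or pseudocount. Probe sets passed when the geometric mean of both signals was at least its median over all probe sets (20.6), which kept 22519. Symbols came from the platform annotation, updated to RefSeq names. There was 1 symbol for 34945 probe sets, several for 932 and none for 9160. For a gene, 1 probe set was used, the brightest and by preference no _x_at or _s_at set. A ratio past 2-fold was called, and with 1 array for each condition no p-value exists. Sequences are RefSeq windows of GRCm38.p6. Coordinates are those of this annotation.

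All members were named. Signals were given for members past 2-fold, for the highest, lowest and brightest of a role group, and for those whose probe sets differ by over 2-fold, with other genes named where past 2-fold or at either end of a list. A few more were named after their values were seen. Members and lists were chosen with earlier results of these data known. Python 3.11.15, numpy 2.4.6, pandas 2.3.3 and statsmodels 0.14.6 were used. Alternatives covered scaling (median, 75th percentile, quantile, loess, hybridization controls), the filter, the probe set of a gene, 16 added to both signals, and a fold of 1.5.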

Additional observations from a re-analysis of the deposited data

How the results depend on the processing

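With 1 array for each condition, no array could be left out in turn. No paired analysis was possible because each group is 1 array and the labels carry no replicate number. Over 144 alternative values of the counts and medians, 136 kept within their tolerance and 8 moved. Of 359 alternative values of single member genes, 357 stayed within 1 pooled SD of 0.33 and 2 moved, Dlst at -0.09 and Mdh1 at 0.04 with the mean of their probe sets. The sign of 11 such values changed, all of Dlst, Idh3b, Idh3g, Me1, Me2, Pdhb or Pdp1. Without a filter, 3 of 73 member probe sets were higher (with Pcx, those of Pdk4 and a dim Acly set), 1 was lower (another dim Acly set), and 2 of 34 genes were higher, beside 14.2% of all probe sets higher and 11.8% lower, and 12.6% of all genes higher. All of the added ones were below the median of both arrays. At 1.5-fold, 4 member probe sets were higher and 5 lower, beside 11.5% and 10.9% of all probe sets. By gene, 2 members were higher and 3 lower, beside 12.0% and 10.1% of all genes. With the 18 hybridization controls set equal (their mean log2 ratio was -0.13), the member median was 0.20 and that of all genes 0.17. This scaling adds the same constant to every log2 ratio. Across the alternatives Pcx stayed between 1.46 and 1.71, Idh2 between -0.98 and -0.81, Slc25a10 between 0.70 and 0.88, Pck2 between -0.72 and -0.49 and Mpc1 between -0.69 and -0.52. Dim signals limit the kinases and Me3, which have no usable ratio.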
